A study of Rattus norvegicus with 8 samples.

Results

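The RNAs described here are the small non-coding RNA families that the count table names by an Rfam number, Rfam being the catalogue of RNA families defined by shared sequence and structure. Of 28909 symbols in the table, 239 consist of RF and a 5-digit number, and the 93 that exceeded 20 reads in 2 or more of the 8 libraries were kept, which made them members of the 14309 genes tested. The rule used read counts over all libraries and no test between conditions, but levels by compartment decided entry: every one of the 93 passed in somata, and 67 in somata only. The table has an empty biotype cell for all 93, so they were grouped by family instead: 27 carry a well-known family name from a first list, 8 more were named afterwards, and 58 are given by number only. Each symbol sums the reads of every locus annotated under that family, so true genes, pseudogene copies and fragments cannot be told apart, and where a snoRNA lies in an intron its reads cannot be fully separated from those of the host transcript.

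The cells were primary hippocampal neurons of Sprague-Dawley rats grown on porous culture inserts, through which axons and dendrites pass while cell bodies stay on top. RNA of somata came from above the membrane and RNA of processes from below it, after picrotoxin (PTX), an antagonist of the GABA-A receptor, or vehicle (control) for 48 h between day 18 and day 20 in vitro. Total RNA was depleted of ribosomal RNA and sequenced, with 2 libraries for each of 4 conditions: somata with vehicle, somata with PTX, processes with vehicle and processes with PTX. No source used here states that replicates were separate cultures, so p-values measure the spread between these libraries, which may be technical.

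Small non-coding RNAs work as the core of ribonucleoprotein particles. The spliceosomal U RNAs, the small nucleolar RNAs (snoRNAs) that guide modification of ribosomal RNA, RNase MRP RNA and 7SK act chiefly in the nucleus or nucleolus, whereas 7SL, the RNA of the signal recognition particle, and the Y RNAs, partners of the Ro60 protein, are found mostly in the cytoplasm. In this culture somata, which hold the nuclei, stay above the filter, and only processes pass below it. How much of the RNA from above the filter came from processes lying there was not tested. The part of nuclear or cytoplasmic residence in the levels below was not tested.

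The libraries held 12290890 to 18455662 counted reads. Reads outside the mitochondrial genome numbered 9517542 to 11227599 in somata and 4702054 to 5491237 in processes, and the TMM scaling factors, which align the bulk of genes between libraries, were 1.81 to 1.93 in somata and 0.486 to 0.570 in processes. Levels are given as CPM, reads scaled to a common library total with these factors, and log2 fold changes are tested with edgeR's quasi-likelihood test, adjusted by Benjamini-Hochberg over all 14309 genes. Between compartments a family is called lower or higher where the adjusted p is under 0.05 and the log2 fold change is beyond 1 in size. Levels are not corrected for length, so they are compared between libraries and not between families. Bulk libraries cannot tell fewer cells or nuclei from less RNA per cell.

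Markers of the labelled cell type were present, with Map2, a dendritic cytoskeletal protein, at 812 to 985 CPM in somata and 3369 to 4693 CPM in processes. The summed level of 11 neuron markers was 2371 to 2870 CPM in somata and 4727 to 6759 CPM in processes, with Map2 and Camk2a the 2 called higher. The median log2 fold change of the 11 was -0.37 in vehicle and -0.29 in PTX cultures, and 2 of them, Syt1 and Gad1, were called lower in PTX cultures. Astrocyte markers were present too: 8 of 8 were tested, their sum was 2809 to 4129 CPM in somata and 10853 to 14302 CPM in processes, and Gfap and S100b were called higher in processes. The sum of 8 oligodendrocyte lineage markers was 188 to 368 CPM in somata and 269 to 363 CPM in processes. The 7 microglia markers in the table summed to at most 2.44 CPM, and the 5 endothelial ones to at most 9.42 CPM. The part of glial material in the compartment differences below was not tested.

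Processes held a smaller share of reads on these families than somata, by an amount that depends on the total it is set against. The 93 families took 3.38%, 3.78%, 3.58% and 3.40% of all counted reads in the somata libraries and 0.611%, 0.559%, 0.549% and 0.684% in the process libraries. The exact Clopper-Pearson 95% interval was 3.37% to 3.39% for the lowest somata library and 0.545% to 0.552% for the lowest process library, and covers counting error only. Of the reads outside the mitochondrial genome the share was 4.39% to 4.9996% in somata and 1.80% to 2.22% in processes. On the CPM scale the summed level in processes was 57.6% (vehicle) and 62.3% (PTX) of that in somata with 7SL included, and 17.8% and 14.3% without it. The make-up of those reads turned over: 7SL, which brings ribosomes making secreted and membrane proteins to the endoplasmic reticulum, was 6.08% to 6.74% of the family reads in somata and 69.5% to 78.8% in processes. The inhibitor of transcription elongation 7SK went the other way, from 62.5% to 66.3% in somata to 13.7% to 20.5% in processes. RNase P RNA, which trims the front end of transfer RNAs, made up 10.7% to 12.9% and 4.06% to 6.33%, and the other 90 families together 15.5% to 17.9% and 2.70% to 3.62%. Shares of this kind are tied to each other, since a rise in one lowers the rest.

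**Figure D1:**
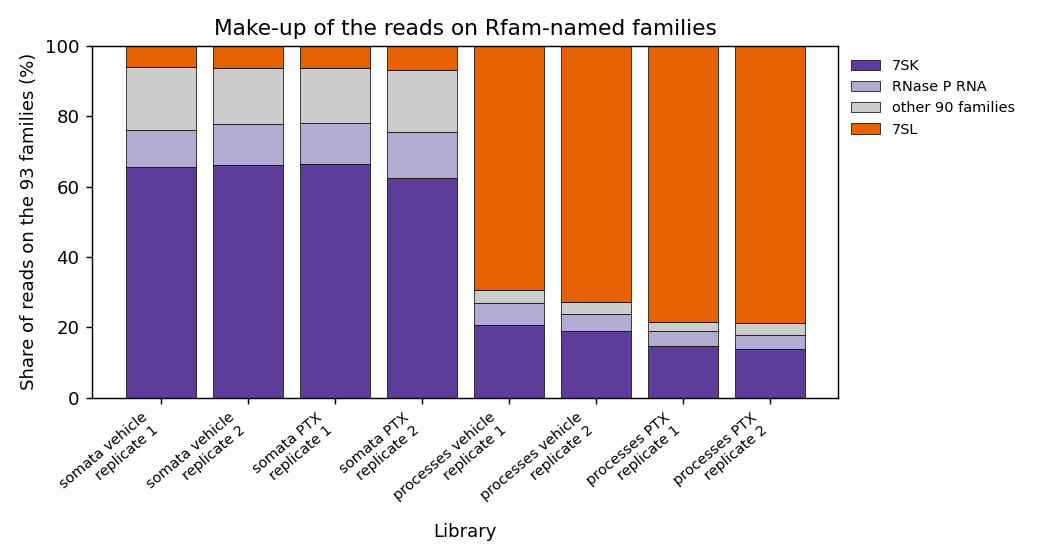
Stacked bars give the share of reads (%) on the 93 Rfam-named families taken by 7SK, RNase P RNA, 7SL and the other 90 families in each of the 8 libraries. 7SK fills 62.5% to 66.3% of each somata bar, and 7SL 69.5% to 78.8% of each process bar.

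In vehicle cultures 67 of the 93 families (72%) were lower in processes than in somata and 2 were higher, where 7.58% of all tested genes were called lower and 11.6% higher. In PTX cultures, which are separate libraries, 70 (75.3%) were lower and 1 was higher, against 9.67% and 11.4% of all tested genes. The median log2 fold change of the families was -2.24 in vehicle and -2.30 in PTX cultures, where the median of all genes was -0.05 in each. Because of how the families passed the read filter, the counts over the families also reflect how they entered and do not speak for families scarce in both compartments. Of the 26 that passed in both compartments, 20 were called lower, 2 higher and 4 neither in vehicle cultures. With the replicate number as a block, 73 and 72 families were lower, where 8.8% and 10.5% of all genes were, and 2 and 1 were higher, where 11.7% and 11.4% were.

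In both vehicle and PTX cultures 62 families (66.7%) were lower, where 5.41% of all tested genes were. A further 16 (17.2%) were called in neither, where 74.9% of all genes were, and 86 (92.5%) had a log2 fold change below 0 in both, where 46.7% did. Taking all 4 process libraries against all 4 somata libraries, 78 families were lower without overlap, where 25.1% of tested genes were, and 5 were higher without overlap, where 26.2% were. These 5 were 7SL, Y RNA, RF00405, RF00400 and RF00409, the numbered ones being named after their values were seen. The counts given above also reflect how the families entered, since 67 of the 93 had passed the read filter in somata only.

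**Figure D2:**
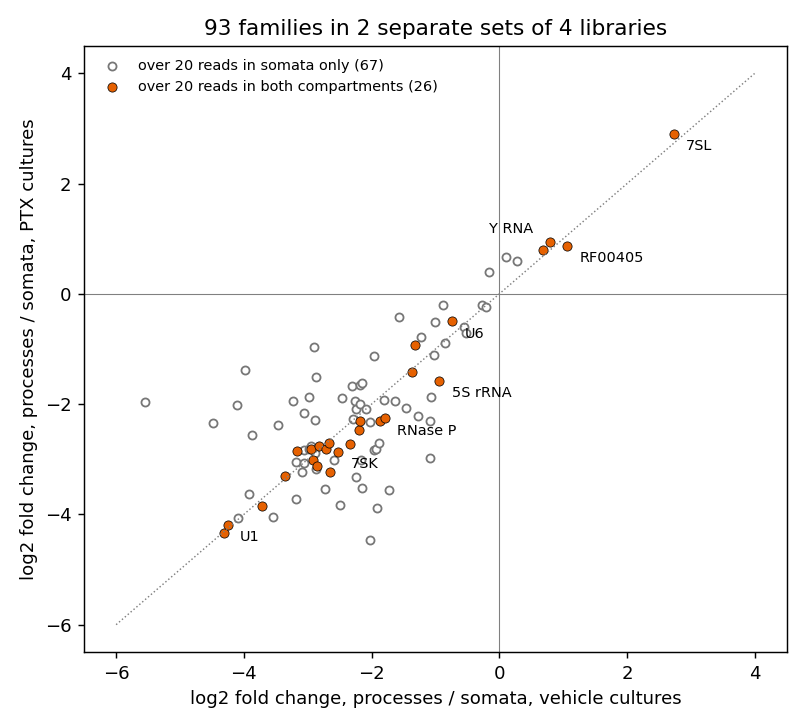
Each point is 1 of the 93 families, placed by its log2 fold change of processes over somata in vehicle cultures (x axis) and in PTX cultures (y axis), with equal values on the dotted line. Filled points are the 26 families that exceeded 20 reads in both compartments, open points the 67 that passed in somata only, and 86 families lie below 0 on both axes.

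The major spliceosomal RNAs U1, U2 and U4 were among the most depleted in processes. U1 (RF00003), which recognises the 5′ splice site, was at 799, 695, 661 and 692 CPM in the somata libraries (vehicle replicates 1 and 2, then PTX replicates 1 and 2) and at 51.1, 27.01, 28.4 and 45.4 CPM in the process libraries. The somata and process values of U1 were far apart in every library, with a log2 fold change of -4.26 in vehicle (SE 0.291, adjusted p = 1.65e-06 in edgeR) and -4.19 in PTX cultures, which left 5.24% and 5.47% of the somatic level. U2 (RF00004), which pairs with the branch point, fell by 4.32 on the log2 scale in vehicle (SE 0.297, adjusted p = 1.7e-06) and by 4.33 in PTX cultures, from 666 to 870 CPM in somata to 26.5 to 52.1 CPM in processes. U4 (RF00015), the partner that holds U6 inactive before splicing, was at 58.7, 48.3, 38.6 and 46.3 CPM in somata and at 7.47, 2.94, 2.99 and 5.53 CPM in processes. The log2 fold changes of U4 were -3.35 in vehicle (SE 0.307, adjusted p = 1.01e-05) and -3.30 in PTX cultures, and its lowest somata library stood above its highest process library. Without replicate 1 of the vehicle processes the vehicle value was -4.18.

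U6 and U5 join U2 in the active spliceosome, and their values lay closer to 0 than those of U1, U2 and U4. U6 (RF00026) was at 23.3, 21.0, 18.9 and 17.4 CPM in somata and 12.2, 14.4, 11.4 and 14.4 CPM in processes, without overlap but close together. Its log2 fold change was -0.74 in vehicle (95% interval -1.08 to -0.40, adjusted p = 0.00272) and -0.50 in PTX cultures (adjusted p = 0.021), short of the size threshold of 1, so that processes held 59.9% and 70.9% of the somatic level. U5 (RF00020) had passed the read filter in somata only, which favours a lower level in processes. It was at 2.16 to 3.27 CPM in somata and 0.689 to 1.91 CPM in processes. Its log2 fold changes of -0.84 in vehicle (SE 0.372, adjusted p = 0.084) and -0.88 in PTX cultures (SE 0.390, adjusted p = 0.0831) did not pass the edgeR test. Without replicate 2 of the PTX processes, U5 was called lower in PTX cultures (-1.82, adjusted p = 0.0153). The intervals of U6 and of U1 or U2 did not overlap, though the difference between families was not itself tested. U6 is known for many pseudogene copies, and how many loci the U6 symbol sums is not shown by the table.

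The RNAs of the minor spliceosome, which removes a rare class of introns, had few reads in these libraries, as did U5. U12 (RF00007), its branch-point RNA, was at 3.81 to 5.797 CPM in somata and 1.17 to 3.35 CPM in processes. Its log2 fold change was -1.32 in vehicle (SE 0.352, adjusted p = 0.0107), a call that was lost without replicate 2 of the vehicle processes (-0.76, adjusted p = 0.0742) and stood at -2.27 without replicate 1, and -0.92 in PTX cultures (adjusted p = 0.0541; 0.0135 with the replicate block, still short of the size threshold). U6atac (RF00619) had 63 to 69 reads in the somata libraries and 6, 1, 2 and 2 reads in the process libraries, and was called lower in both (log2 -2.73 and -3.55), the vehicle value being -4.44 without processes replicate 1 and -2.00 without replicate 2. Like U6atac, U11 (RF00548) had passed the read filter in somata only, which favours a lower level in processes. It had 27 to 45 reads in somata and 6, 0, 1 and 4 reads in processes. Its calls (adjusted p = 0.0395 and 0.0498) were lost under DESeq2 (0.0507 and 0.0602) and without any 1 of several libraries. Summed over the 8 spliceosomal families, the process level was 6.26% of the somatic level in vehicle and 6.39% in PTX cultures, a sum that U1 and U2 dominate.

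**Figure D3:**
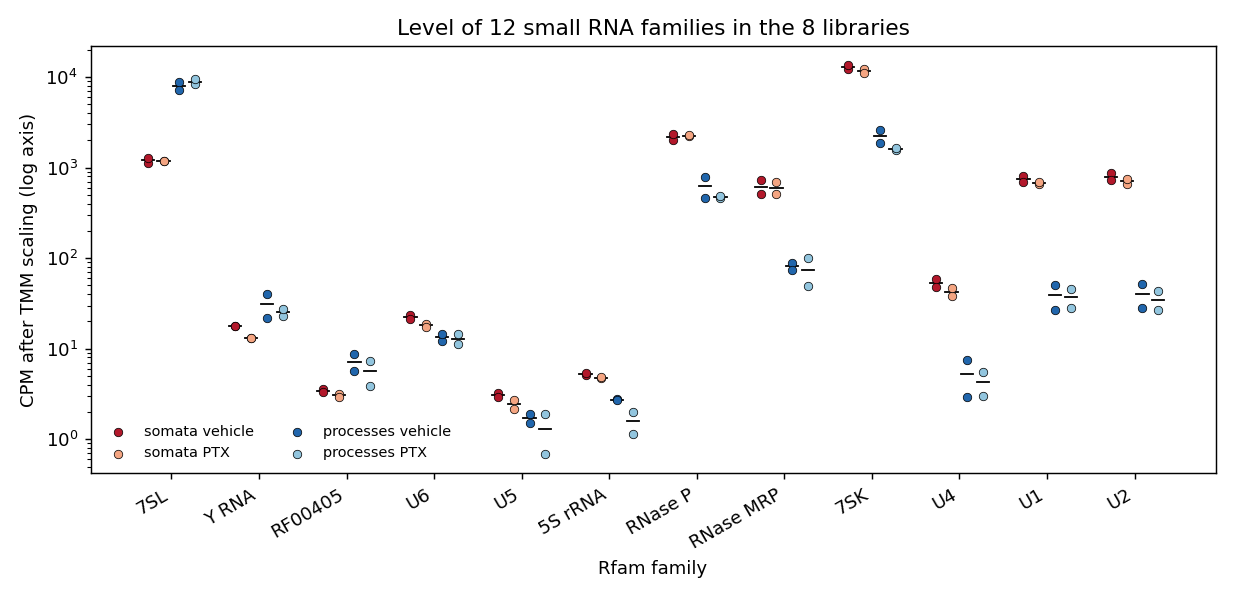
Points give the level (CPM, log axis) of 12 families in the 8 libraries, coloured by condition, and short lines the mean of the 2 libraries of a condition. 7SL, Y RNA and RF00405 stand higher in processes, U6 lies close between the compartments, and U1 and U2 drop from 661 to 870 CPM in somata to 26.5 to 52.1 CPM in processes.

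Of the 19 named snoRNA families, 15 had passed the read filter in somata only, which favours a lower level in processes. The other 4, SNORD113, SNORD115, SNORD116 and SNORA73, passed in both compartments and were all called lower in vehicle and in PTX cultures. With the 15 included, 16 were lower in vehicle and 17 in PTX cultures, where 7.58% and 9.67% of all genes were, and none was higher. Summed, processes held 15.9% of the somatic level in vehicle and 15.6% in PTX cultures. SNORD113 (RF00181), from the imprinted Dlk1-Meg3 cluster, took the most reads among them. It was at 190, 143, 198 and 144 CPM in somata and 25.3, 21.7, 26.8 and 23.6 CPM in processes, and fell by 2.82 on the log2 scale in vehicle (SE 0.196, adjusted p = 1.77e-06) and by 2.76 in PTX cultures. In the somata the replicate 1 libraries stood above the replicate 2 libraries, in processes too but by less.

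SNORD115 and SNORD116, brain-expressed snoRNAs of the imprinted Prader-Willi region, fell by similar amounts. SNORD116 (RF00108) was at 32.4, 28.8, 26.5 and 24.9 CPM in somata and 6.36, 7.05, 4.82 and 4.52 CPM in processes (log2 -2.19 in vehicle, SE 0.144, adjusted p = 1.38e-06). SNORD115 (RF00105) was at 16.5 to 21.9 CPM in somata and 3.29 to 5.69 CPM in processes (log2 -2.19 in vehicle, SE 0.221, adjusted p = 2e-05). In PTX cultures the log2 fold changes were -2.46 for SNORD116 and -2.30 for SNORD115. Neither family overlapped between compartments.

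Among the named H/ACA snoRNAs, which guide the conversion of uridine to pseudouridine, SNORA63 (RF00092) was among the lowest in processes. It had 9, 3, 5 and 8 reads in the process libraries and had passed the read filter in somata only, as had SNORA74, SNORA70 and SNORA62. It was at 9.69, 11.2, 8.45 and 8.98 CPM in somata and 1.004, 0.352, 0.574 and 0.804 CPM in processes, a log2 fold change of -3.92 in vehicle (SE 0.318, adjusted p = 4.5e-06) and -3.63 in PTX cultures. The vehicle value was -4.86 without processes replicate 1 and -3.37 without processes replicate 2. SNORA74 (RF00090) was similar, at -3.54 and -4.05, from 5, 6, 2 and 4 reads in the process libraries. SNORA73 (RF00045), which takes part in 18S rRNA processing, had values of -2.72 and -2.82 (-3.56 in PTX cultures without processes replicate 2). Its level was 54.5 to 70.7 CPM in somata and 4.71 to 11.9 CPM in processes. SNORA70 (RF00156) had -1.80 and -1.93. The exception among these named families was SNORA62 (RF00091), at 1.06 to 2.15 CPM in somata and 1.34 to 1.81 CPM in processes. Its log2 fold changes were -0.15 (SE 0.391, adjusted p = 0.768) and 0.39 (SE 0.395, adjusted p = 0.429). Its values overlapped between the compartments. The families given by number only were not sorted by kind of RNA, so they do not enter this comparison.

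C/D snoRNAs guide 2′-O-methylation or take part in pre-rRNA cleavage. Those of this paragraph had all passed the read filter in somata only, which favours a lower level in processes. SNORD15 (RF00067, log2 -3.05 and -3.07) and SNORD22 (RF00099, -2.86 and -3.17) were called lower in both kinds of culture. Their vehicle values were -4.00 and -3.52 without processes replicate 1. SNORD14 (RF00016), the U14 RNA of 18S processing, was at -1.46 and -2.08, and U8 (RF00096), needed for 5.8S and 28S processing, at -2.03 and -4.46. U8 had 26 to 42 reads in somata and 3, 2, 0 and 1 reads in processes, so its fold in PTX cultures rests on 1 read. The vehicle calls of SNORD14 and U8 were each lost under DESeq2 (adjusted p = 0.141 and 0.0645) and without any 1 of 3 of the 4 vehicle libraries. The PTX call of SNORD14 was lost without processes replicate 1 (adjusted p = 0.0826), and its value was -3.25 without replicate 2. SNORD24 (RF00069, -2.18 and -1.66) and SNORD29 (-1.97 and -2.84) passed in both. SNORD24 lost its vehicle call without processes replicate 1 (-1.73, adjusted p = 0.0526) and its PTX call without replicate 2 of either PTX compartment (adjusted p = 0.0732 and 0.11). SNORD25 (RF00054) was called in PTX cultures (-3.56, adjusted p = 0.0117) and not in vehicle (-1.73, adjusted p = 0.0946; 0.0311 with the replicate block, 0.0291 in the likelihood ratio test, 0.0156 without a filter and 0.0288 with the total outside the mitochondrial genome), and the PTX call was lost without processes replicate 2 (-2.52, adjusted p = 0.0955), and SNORD27 in neither.

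SNORD28, SNORD30 and SNORD47 were called lower in both, from at most 7 reads in any process library. Their reads in the 4 process libraries were 0, 1, 0 and 3 for SNORD28, 1, 0, 2 and 2 for SNORD30 and 2, 0, 3 and 7 for SNORD47, beside 19 to 49 reads in each somata library. These counts show a low level in processes but fix no fold. Their PTX calls were lost in DESeq2 (adjusted p = 0.0546 for SNORD28 (RF00085), 0.0986 for SNORD30 (RF00088) and 0.123 for SNORD47 (RF00281)) and without any 1 of 2 to 4 PTX libraries, and the vehicle call of SNORD28 without processes replicate 1 (adjusted p = 0.0754). The families SNORD22, SNORD25, SNORD27, SNORD28, SNORD29 and SNORD30 are encoded in the introns of a shared host gene, Snhg1 in mammals. Summed, they were at 11.8 to 13.5 CPM in somata and 1.81 to 2.79 CPM in processes, or 19.1% and 15.8% of the somatic level. All of these families, and SNORD47, had passed the read filter in somata only, which favours a lower level in processes.

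**Figure D4:**
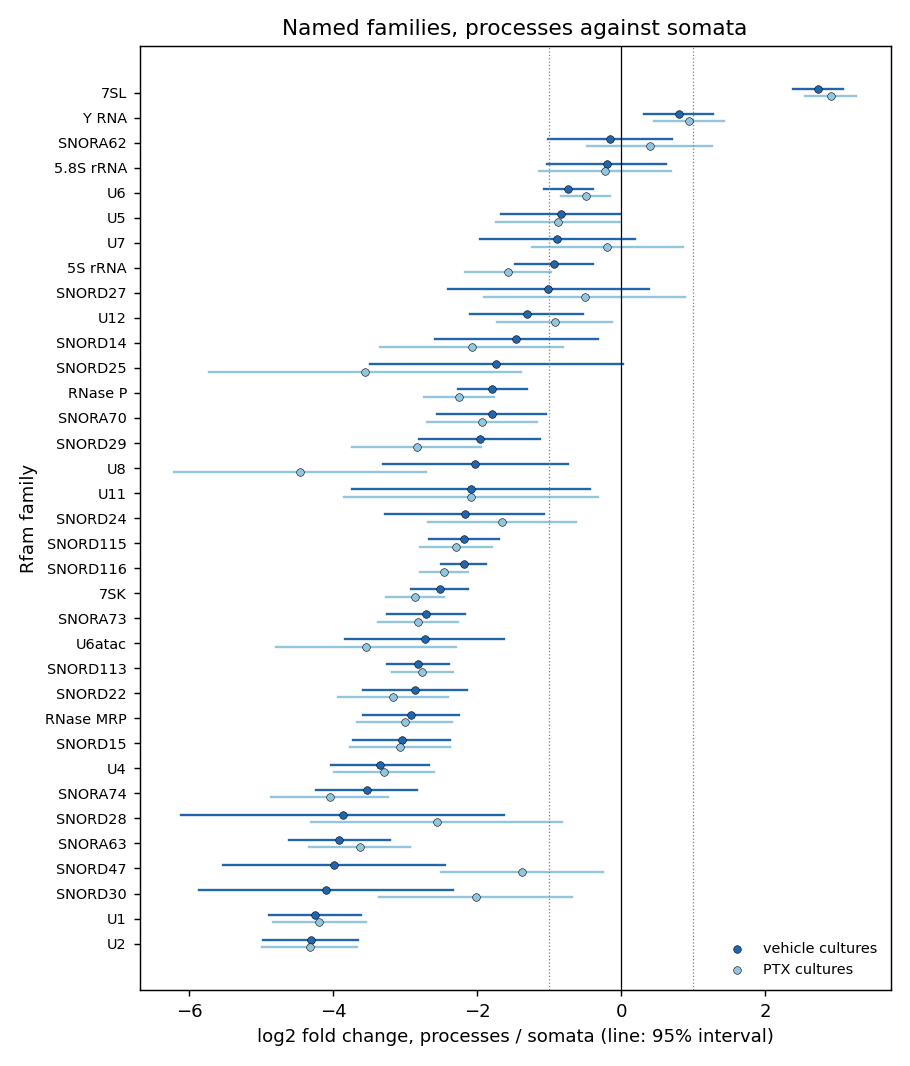
Points give the log2 fold change of processes over somata for the 35 named families in vehicle (dark) and PTX (light) cultures. Lines give the 95% intervals derived from the edgeR test, and dotted lines a log2 fold change of 1 in size. 7SL is the only named family with its intervals wholly beyond +1, and U2 and U1 lie lowest in vehicle cultures.

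RNase MRP and RNase P, the ribozyme RNAs, both fell. RNase MRP RNA (RF00030), which cuts precursor ribosomal RNA, was at 512, 722, 515 and 687 CPM in somata and 88.8, 74.3, 49.3 and 99.6 CPM in processes. Its log2 fold change was -2.92 in vehicle (SE 0.300, adjusted p = 2.26e-05) and -3.01 in PTX cultures, which left 13.2% and 12.4%, and -3.61 in PTX cultures without processes replicate 2. RNase P RNA (RF00009) was at 2000, 2369, 2231 and 2290 CPM in somata and 797, 466, 458 and 487 CPM in processes. It fell by 1.79 on the log2 scale in vehicle (SE 0.216, adjusted p = 7.05e-05) and by 2.26 in PTX cultures, and replicate 1 of the vehicle processes was its highest process library. Rpph1, the gene symbol the table gives to RNase P RNA beside the Rfam symbol, had log2 fold changes of -1.78 and -2.01.

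7SK RNA (RF00100), which holds the elongation factor P-TEFb inactive together with HEXIM1, took most of the family reads in somata. It was at 12228, 13478, 12408 and 11056 CPM in somata and 2582, 1891, 1562 and 1647 CPM in processes. The fall was 2.52 on the log2 scale in vehicle (SE 0.180, adjusted p = 2.1e-06) and 2.87 in PTX cultures, which left 17.4% and 13.7% of the somatic level. Terc, the telomerase RNA, known as nuclear and listed under its own symbol, was at 3.88 to 6.005 CPM in somata and 0.446 to 1.01 CPM in processes (log2 -3.14 and -2.54).

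7SL RNA (RF00017) rose in processes and was the only family called higher in both vehicle and PTX cultures. It was at 1134, 1267, 1179 and 1193 CPM in somata and 8750, 7218, 8388 and 9453 CPM in processes, so the lowest process library stood well above the highest somata library. The log2 fold change was 2.73 in vehicle (SE 0.159, adjusted p = 8.64e-07), or 6.65-fold, and 2.91 in PTX cultures (SE 0.160, adjusted p = 6.84e-07), or 7.52-fold. Rn7sl1, the gene symbol of 7SL, gave 6.45-fold and 6.95-fold from 353 to 411 reads in somata and 758 to 1077 in processes. The size depends on scaling: with library size alone, which takes in the mitochondrial reads, the log2 fold change of 7SL was 0.91 in vehicle and 1.09 in PTX cultures, while the median of all genes was then -1.86 and -1.87.

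Y RNA (RF00019) had its higher levels in processes as well, by less. It was at 18.02, 17.7, 13.2 and 13.1 CPM in somata and 39.9, 22.1, 23.1 and 27.5 CPM in processes, without overlap. The log2 fold changes of 0.80 (SE 0.216, adjusted p = 0.0113) and 0.94 (SE 0.221, adjusted p = 0.00489) had an adjusted p under 0.05 but fell short of the size threshold. With library size alone the values turned to -1.03 and -0.88. Replicate 1 of the vehicle processes stood above the other process libraries, and the log2 fold change in vehicle was 0.31 without it and 1.16, past the threshold, without replicate 2 of that condition.

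RF00405, RF00400, RF00409 and RF00570 were the numbered families with a log2 fold change above 0 in vehicle cultures and are named for that, after their values were seen. RF00405 was at 3.57, 3.33, 3.13 and 2.96 CPM in somata and 8.81, 5.64, 7.35 and 3.92 CPM in processes, and was called higher in vehicle (log2 1.07, SE 0.295, adjusted p = 0.0124). The call was lost with upper-quartile scaling (0.86), with the total outside the mitochondrial genome (0.61, adjusted p = 0.0892), without somata replicate 2 (1.01, adjusted p = 0.0572) and without processes replicate 1 (0.71, adjusted p = 0.148), and with library size alone the value turned to -0.75. In PTX cultures its value was 0.87 (adjusted p = 0.0346), short of the size threshold, and 1.27 (adjusted p = 0.00822) without processes replicate 2. RF00400 (0.69 and 0.80), RF00409 (0.28 and 0.59) and RF00570 (0.10 and 0.67) did not pass the test, and with library size alone all 3 were called lower instead. RF00400 had 19 to 40 reads in a library and RF00570 had 12 to 38, so small differences were not detectable at this depth.

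Ribosomal RNA was depleted before sequencing, and how far that step, or copies other than the true genes, set the levels of the 5S and 5.8S families was not tested. 5S rRNA (RF00001) was at 4.75 to 5.33 CPM in somata and 2.79, 2.70, 1.15 and 2.01 CPM in processes, with log2 fold changes of -0.94 (SE 0.246, adjusted p = 0.00967) and -1.58 (SE 0.269, adjusted p = 0.000713), the second being called. 5.8S rRNA (RF00002) overlapped between compartments, at -0.20 and -0.23. U7 (RF00066), which directs the 3′ end formation of histone transcripts, was at 0.720 to 1.19 CPM in somata and 0.459 to 0.905 CPM in processes and was called in neither (-0.89 and -0.19).

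Of the 58 families given by number only, 11 passed the read filter in both compartments, and 9 of these were lower and 1 higher in vehicle cultures, and 9 lower and none higher in PTX cultures. The other 47 had passed in somata only, with 33 and 35 called lower. Over all 58 this gives 42 and 44 lower, where 7.58% and 9.67% of all genes were. Summed, processes held 19.2% and 16.6% of the somatic level. Those with the most reads, named after their values were seen, were RF01296 (100 to 113 CPM in somata and 12.4 to 20.3 CPM in processes, log2 -2.67 and -2.70) and RF01295 (89.5 to 98.3 and 18.1 to 28.2 CPM, log2 -1.86 and -2.31). RF00554 had the smallest adjusted p of all 93 (log2 -3.72, SE 0.155, adjusted p = 4.46e-07 in vehicle), at 78.1 to 91.4 CPM in somata and 5.17 to 7.47 CPM in processes. The lowest fitted value, -5.54 for RF00056, rests on 1 and 0 reads in the vehicle processes beside 71 and 76 in the vehicle somata. With 4 and 8 reads in the PTX processes, its value there was -1.96.

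Process libraries differed from each other in how much of these families they held. Over the 62 families lower in both kinds of culture, the median level relative to the mean of somata of the same treatment was 15.6% and 13.1% in vehicle replicates 1 and 2 and 11.5% and 16.4% in PTX replicates 1 and 2. The 62 were picked for low process levels in these same libraries and are not replicates, so only the spread between libraries is read here. U1 went with this spread, at 6.84% and 3.62% in vehicle and 4.19% and 6.72% in PTX cultures. From replicate 1 to replicate 2 the median log2 difference of the 93 families was -0.28 in the vehicle processes and 0.34 in the PTX processes, and -0.01 and -0.00063 in the somata. Differences between vehicle and PTX in the processes stand against this spread.

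The 146 Rfam-named symbols under the read filter summed to 32.6 to 38.0 CPM in somata and 10.2 to 14.5 CPM in processes, or 37.0% and 31.2% of the somatic level, and 19 of them had 0 reads in every library. Just inside the filter, RF00086 had 22 reads in its second-highest library and RF00322 and RF00432 had 23. Just outside it, RF00049, RF00421, RF00594 and RF01225 had 20. Among those left out, U3, the abundant nucleolar RNA of pre-rRNA cleavage, had 12 to 22 reads in somata and 1, 2, 0 and 4 in processes. The vault RNA, part of a large cytoplasmic particle, had 7 to 18 reads in somata and 11, 1, 9 and 12 in processes.

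The messenger RNAs of the proteins that bind these families were called in both directions. Of 31 tested Sm, LSm and snRNP proteins, which coat the spliceosomal RNAs, 5 were higher in processes in vehicle cultures (Snrnp25 1.20, Snrpd2 1.17 and, named after their values were seen, Lsm4 1.11, Lsm6 1.06 and Snrpe 1.02) and 2 lower (Snrnp48 -1.25 and Snrnp70 -1.07), with a median of 0.08. These are shares of 16.1% and 6.45%, where 11.6% and 7.58% of all genes were called. In PTX cultures 3 were higher and 3 lower, and Snrpd2, Lsm4 and Snrpe no longer passed the size threshold. Of 22 snoRNP proteins 1 was lower (Imp3 -1.13) and none higher, and of 24 proteins for capping, export and assembly of small RNAs 1 was lower (Gemin6 -1.05) and none higher. In PTX cultures 1 snoRNP protein was higher (Nhp2 1.02) and 2 lower (Wrap53 -1.22 and Nufip1 -1.06), with Imp3 at -0.45 not called, and 2 assembly proteins were lower. The vehicle medians were -0.30 and -0.18, where that of the 93 families was -2.24. These are levels of messenger RNA and do not measure the proteins.

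Of the 5 tested mRNAs of the signal recognition particle and its receptor, Srp9 was higher in processes, at 10.3 to 12.5 CPM in somata and 20.4 to 33.1 CPM in processes (log2 1.32, SE 0.211, adjusted p = 0.000503 in vehicle, and 1.04 in PTX cultures). The median of the 5 was 0.56 in vehicle cultures, beside 2.73 for 7SL itself. Of the 7 genes of the 7SK particle and P-TEFb, Ccnt2, a cyclin of P-TEFb, was lower (-1.35, and -1.16 in PTX cultures), and of the 11 RNase P and MRP proteins Rpp21 was higher (1.02) and Rpp25 (-2.14) and Rpp38 (-1.01) lower in vehicle cultures. In PTX cultures Rpp38 (-1.31) alone of these was called. Beside all of these lists, 11.6% of all tested genes were higher and 7.58% lower in vehicle cultures, and 11.4% and 9.67% in PTX cultures. None of the 4 Y RNA, vault and La proteins was called. Of the snoRNA host genes and nuclear long non-coding RNAs listed, Snhg11 alone was in the table and tested, and it was lower in processes (-1.09 and -1.63).

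PTX changed none of the 93 families in either compartment by the adjusted p, where 2.09% of all tested genes were called higher and 1.5% lower in somata, and 1.64% and 2.1% in processes. At an unadjusted p under 0.05 there were 0 families higher and 3 lower in somata, where 8.27% and 7.3% of all genes were. In processes 2 were higher and 6 lower, where 7.67% and 8.88% were. With the replicate block 1 family was lower in somata and 0 higher, where 6.79% and 7.21% of all genes were, and in processes 1 was higher and 3 were lower, where 5.1% and 6.09% were. In the somata the median log2 fold change of PTX over vehicle was -0.14, and 75 of the 93 (80.6%) lay below 0, where 51.1% of all genes did. In the processes the median was -0.19 and 58 (62.4%) lay below 0, where 51.6% of all genes did. All families share the same libraries, so such counts describe the libraries and carry no test.

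Among the protein lists above, Snrpa1, a U2 protein, was higher with PTX in somata (log2 0.79, adjusted p = 0.0186) and so was Snrpg, an Sm protein, in processes (0.61, adjusted p = 0.0473), and no other listed protein mRNA passed in either compartment.

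For the families with the most reads the intervals bound how large a PTX effect could be. 7SL had a log2 fold change of -0.02 in somata (95% interval -0.35 to 0.31) and 0.16 in processes (-0.17 to 0.49). U1 had -0.14 in somata (-0.69 to 0.41) and -0.08 in processes (-0.69 to 0.53), and U2 had -0.18 and -0.19. The intervals of U1 are wide enough to leave changes of over 1.5-fold undetected. Y RNA was at -0.44 in somata (-0.91 to 0.03, adjusted p = 0.368), where both PTX libraries lay below both vehicle libraries, and at -0.29 in processes.

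The smallest p-values in somata belonged to RF00425 (log2 -1.08, adjusted p = 0.199), RF00570 (-0.83, adjusted p = 0.21) and SNORA74 (-0.44, adjusted p = 0.306). RF00425 had 26 and 42 reads with vehicle and 14 and 19 with PTX, and with the replicate block its adjusted p was 0.0346. RF00570 had 38 and 35 reads with vehicle and 22 and 21 with PTX.

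In processes 7SK (RF00100) was at 2582 and 1891 CPM with vehicle and 1562 and 1647 CPM with PTX, so both PTX libraries lay below both vehicle libraries. Its log2 fold change was -0.48 (95% interval -0.86 to -0.10, adjusted p = 0.179 in edgeR), and the adjusted p was 0.0166 with the replicate block and 0.0475 in DESeq2. RF01295 (-0.45, adjusted p = 0.109) and RF00231 (-0.71, adjusted p = 0.12) were not called either. With the block both were lower (0.0143 and 0.0348), and RF00231 was lower in the likelihood ratio test (0.0396) and without a filter (0.0282) too, as was 7SK without a filter (0.0105). RF00056 went from 1 and 0 reads to 4 and 8 reads (adjusted p = 0.0985; 0.0495 with the block, 0.0328 in the likelihood ratio test and 0.0308 without a filter). RNase P RNA (RF00009) had -0.42 (-0.88 to 0.05, adjusted p = 0.36; 0.048 without a filter), and passed at -0.75 (adjusted p = 0.0347) without replicate 2 of the vehicle processes.

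The difference of the PTX effects, processes minus somata, passed for none of the 93 families and for none of the 14309 genes in edgeR's quasi-likelihood test. At an unadjusted p under 0.05, 3 families were higher and 2 lower, where 1.59% and 2.41% of all genes were. With the replicate block none of the 93 passed, where 0.0769% of all genes were called higher and 0.028% lower. RF00056 (3.59), SNORD47 (2.61) and RF01295 (-0.45) had the smallest p-values, the first 2 from at most 8 reads in any process library. For 7SK the difference was -0.35 (95% interval -0.88 to 0.19) and for 7SL 0.18 (-0.29 to 0.64).

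**Figure D5:**
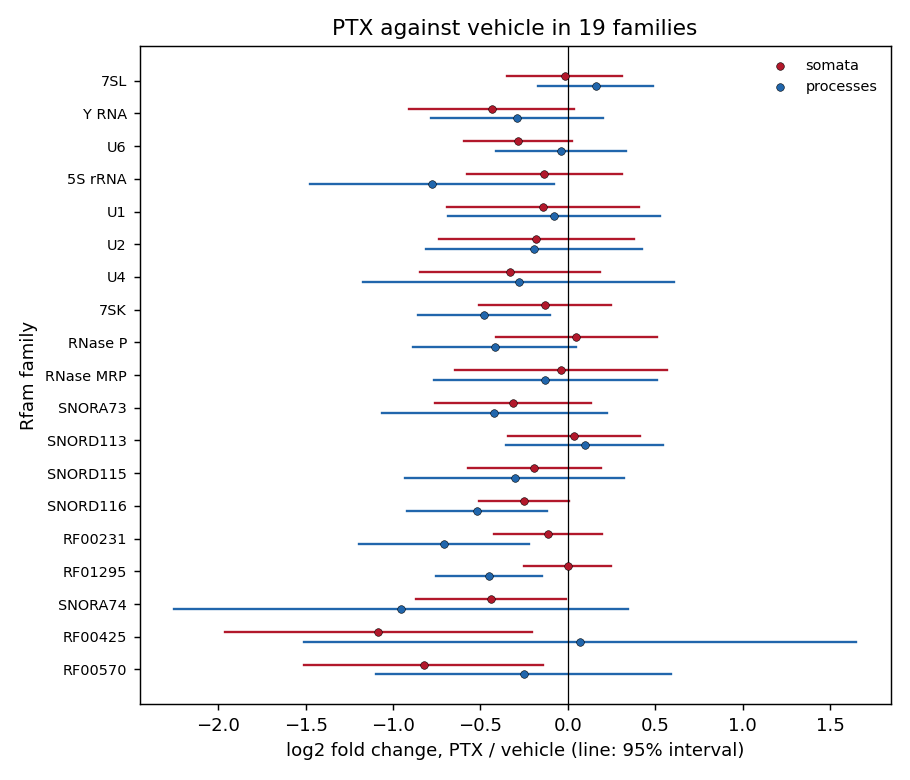
Points give the log2 fold change of PTX over vehicle in somata and in processes for 19 families, and lines the 95% intervals derived from the edgeR test. Before adjustment for the number of genes tested, the intervals of RF00425, RF00570 and SNORA74 in somata and of 5S rRNA, 7SK, SNORD116, RF00231 and RF01295 in processes lie below 0.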

How the data were processed

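Ribosome-depleted total RNA of 8 libraries, 2 for each of 4 conditions, was sequenced by the authors with a directional library kit not made for small RNA. The deposited values are raw counts per gene symbol: per the study's methods, reads were trimmed, aligned to Rnor_6.0, assigned to Ensembl genes with featureCounts and summed by symbol. The submitters' processing notes name STAR as aligner and the methods name Subread, so the aligner is not settled here. How reads matching several copies of a family were treated changes these counts and was not tested. The deposited tables of fold changes and p-values were not used as results; their biotype column was read only.

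Counts were tested in edgeR 4.0.16 (R 4.3.3, limma 3.58.1) with TMM factors, glmQLFit and glmQLFTest, 1 coefficient per condition over all 8 libraries, keeping genes that exceeded 20 reads in 2 or more libraries. P-values were adjusted by Benjamini-Hochberg over 14309 genes at 0.05. The results were recomputed with DESeq2 1.42.0, edgeR's likelihood ratio test, other scalings and filters, a replicate block, and each library left out in turn. The procedure was run on simulated data with a single dispersion and changes planted only in genes averaging over 20 reads. Scarcer families are not covered by it. The families and gene lists were chosen with earlier results of these data known. Named were all families with a listed name, the 3 called families with the largest change in each direction and a mean of at least 5 CPM, the 3 with the smallest p for each PTX contrast, and the 2 called genes with the largest change in each direction of each protein list.

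The replicate numbers come from the sample titles. Replicate 2 minus replicate 1 differences correlated across genes at r from 0.27 to 0.54 in all 6 pairs of conditions. Genes are not independent replicates. The main test used no pairing, and the numbers paired the libraries only in the fit with the replicate block. Over the 93 families r ran from -0.22 to 0.29. The block lowered the common dispersion from a coefficient of variation of 11.5% to 6.77%. No family had a sequence in the reference tables used here (0 of 93 matched RefSeq GRCr8), so none is printed.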

Additional observations from a re-analysis of the deposited data

How the results depend on the processing

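All compartment calls are relative to the bulk of genes. With library size alone, the median of all genes in vehicle cultures moved to -1.86 and the split to 91 families lower and 0 higher (PTX cultures 90 and 1). With upper-quartile scaling the median was -0.25 and the split 75 and 1 (PTX 73 and 1), and with the total outside the mitochondrial genome -0.51 and 80 and 1 (PTX 78 and 1). Requiring at least 10 reads in every library left 29 families, of which 20 (vehicle) and 19 (PTX) were lower. Leaving out 1 library gave 54 to 60 lower and 1 to 3 higher in vehicle, and 56 to 62 lower and 1 to 2 higher in PTX cultures. The lone library was then assumed to vary like the other groups. The vehicle count of families higher fell to 1 without somata replicate 2 or processes replicate 1, and the PTX count rose to 2 without either process library. With library size alone RF00405 reversed in vehicle cultures (-0.75), and Y RNA, not called in the main test, turned negative.

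For PTX against vehicle in processes, the likelihood ratio test called 1 family higher and 1 lower, DESeq2 1 lower, and the fit without a filter 1 higher and 3 lower. Leaving out 1 library gave 0 to 1 lower, the 1 being RNase P RNA without replicate 2 of the vehicle processes. With the replicate block, PTX called 1 family lower in somata (RF00425), and 1 higher (RF00056) and 3 lower (7SK, RF01295 and RF00231) in processes. It raised the compartment counts from 67 to 73 lower in vehicle cultures (SNORD25 among them) and from 70 to 72 in PTX cultures. Beyond these it changed no call of a family with a name.

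Summed levels in processes as a percent of somata moved with scaling. With library size alone they were 1.76 and 1.83 (vehicle and PTX) for spliceosomal RNAs, 4.53 and 4.41 for named snoRNAs, 5.47 and 4.72 for numbered families and 10.5 and 8.81 for symbols under the filter. With upper-quartile scaling, snoRNAs in PTX cultures were 13.8, numbered families in vehicle 16.7 and symbols under the filter 32.1 and 27.6. With the total outside the mitochondrial genome, snoRNAs were 11.6 and 11.4, numbered families 13.9 and 12.1, and symbols under the filter 26.9 and 22.7. Leaving out 1 library gave 14.3 to 17.2 for snoRNAs in PTX cultures. Depth limits families with under 10 process reads, whose folds are not fixed by these counts.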
